A study of Homo sapiens with 7 samples.

Results

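The genes described here are 10 markers used to recognise trophoblast and amnion, the extraembryonic epithelia that form the placenta and the sac around the embryo: GATA2, GATA3, TFAP2A, TFAP2C, CDX2, KRT7, CGA, HAND1, ISL1 and GABRP. Their rows were found by gene symbol, and each symbol matched 1 of the 22670 entries listed per library, of which 20187 lie on chromosomes. RNA-seq was performed on SEES-3 human embryonic stem cells (hESCs), an established line, carrying a piggyBac transgene that doxycycline (Dox) switches on through a reverse Tet-transactivator. The transgene encodes JMJD3c, the catalytic part of the H3K27 demethylase JMJD3 (KDM6B), with an HA tag and a nuclear localisation signal. The JMJD3c-hESCs were collected before Dox (Day 0) and on Days 1, 2, 3 and 4 of treatment with 1 µg/ml. A second line, the JMJD3c mut-hESCs, carries the transgene with a point mutation that removes its catalytic activity, and was collected untreated and on Day 4 of treatment. All 7 libraries came from puromycin-selected stable cells of the same parental line that express the transactivator, and each condition had 1 library, so the differences below lack a replicate check and are given with no p-value.

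Trophoblast is the outer lineage of the blastocyst, and amnion arises later from the epiblast. Both are flat or polarised epithelia that share the transcription factors GATA2, GATA3, TFAP2A and TFAP2C and the simple keratin KRT7, and hESCs exposed to BMP4 can turn on this shared set. CDX2 acts early in trophoblast, CGA encodes the hormone alpha subunit secreted by the syncytiotrophoblast, and HAND1, ISL1 and GABRP are used to tell amnion and late trophoblast derivatives apart. TFAP2C is also expressed in naive and primed pluripotent cells and in germ cell precursors, so it does not mark trophoblast on its own. H3K27me3, the repressive histone mark that JMJD3 removes, covers the start sites of many such developmental regulators in hESCs.

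For 8 of the 10 markers a RefSeq start was listed in the promoter table used (assembly GRCh38.p14, matched letter for letter to GRCh37, the assembly named hg19 in the files); TFAP2C and KRT7 had no entry. The 250 bases before the start are printed for 3 markers whose entry begins within 50 bases of that start. GATA3 was chosen because it was listed at 0 at Day 0 and had its own highest level at Day 4, and HAND1 and CGA because they were listed at 0 in every library. Each is written 5′ to 3′ on the strand of the gene with the CG dinucleotides in capitals. GATA3 lies at chr10:8096401-8096650 on the plus strand, HAND1 at chr5:153857788-153858037 on the minus strand and CGA at chr6:87804825-87805074 on the minus strand, in GRCh37 coordinates.
GATA3: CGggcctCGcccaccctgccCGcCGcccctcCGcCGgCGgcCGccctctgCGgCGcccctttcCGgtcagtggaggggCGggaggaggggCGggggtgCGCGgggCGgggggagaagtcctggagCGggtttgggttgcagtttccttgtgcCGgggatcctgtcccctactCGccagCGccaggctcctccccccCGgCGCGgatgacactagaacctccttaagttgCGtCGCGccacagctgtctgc
HAND1: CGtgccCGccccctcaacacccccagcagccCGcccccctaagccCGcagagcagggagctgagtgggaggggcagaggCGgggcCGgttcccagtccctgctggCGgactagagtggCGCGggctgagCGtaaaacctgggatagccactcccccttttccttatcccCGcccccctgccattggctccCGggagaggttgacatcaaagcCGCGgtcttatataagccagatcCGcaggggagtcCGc
CGA: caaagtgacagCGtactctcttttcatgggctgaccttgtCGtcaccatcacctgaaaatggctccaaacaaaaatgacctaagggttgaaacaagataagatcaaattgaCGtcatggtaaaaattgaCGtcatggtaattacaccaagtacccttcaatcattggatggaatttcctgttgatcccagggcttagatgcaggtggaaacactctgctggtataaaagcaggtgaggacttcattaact
These stretches hold 26 CG dinucleotides in GATA3, 16 in HAND1 and 4 in CGA. Over the full window of 300 bases, which adds 50 bases after the start, GATA2 and GATA3 held 29 each, HAND1 21, TFAP2A 18, CDX2 16, CGA 6 and GABRP 5. ISL1 held the most, 36, and 11.3% of the 35116 promoters in the table held more. The median over all promoters was 14, and 6 of the 8 markers were above it. HAND1, with 21, and CGA, with 6, were both listed at 0 throughout, so the CpG-rich and the CpG-poor start were each found among markers without signal. The AP-2 motif GCCNNNGGC, searched on both strands, was found in 4 of the 8 windows (GATA2, GATA3, CDX2 and HAND1), against 23.2% of all promoters. The GATA motif, taken as the letters GATA with A or T before them and A or G after them, on both strands, was found in 3 windows (CDX2, CGA and ISL1), against 24.97% of all promoters. The CGA window held 2 copies of TGACGTCA, the cAMP response element, a motif searched after the sequence had been seen and found in 1.85% of all promoters. For ISL1, CDX2 and GABRP the RefSeq start lies 361, 1824 and 20375 bases from the start of the deposited entry, so their windows may not be the starts that the entries describe.

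The values are FPKM, fragments per kilobase of transcript and sequencing depth, deposited with the lower and upper 95% bounds that Cufflinks gives. These bounds cover the estimate within a library, not the spread between cultures, and the markers listed at 0 have an interval from 0 to 0. The files hold no read counts. Low FPKM values step by whole reads, and the step size put the depth at 3580000 to 7380000 reads, with Day 0 the shallowest. A floor of 3 reads was used for a gene listed at 0. FPKM was converted to reads by the longest annotated transcript, and shorter transcripts would mean fewer reads and a higher floor. Before the markers, the induced gene was checked. KDM6B was 3.45 FPKM at Day 0 and 158, 212, 248 and 282 FPKM at Days 1 to 4, and rose from 2.40 to 454 FPKM with Dox in the mutant line. The pluripotency genes POU5F1 and NANOG were expressed in every library, at 619 to 841 FPKM and 84.3 to 109 FPKM. These 2 genes do not show that the treated cells were undifferentiated. From Day 0 to Day 4, SOX2 went from 136 to 65.9 FPKM and DNMT3B from 404 to 191 FPKM.

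Most of the 10 markers were barely expressed in any library, and the 1 that was clearly expressed fell. Only TFAP2C was above 4 FPKM in all 7 libraries, KRT7 was above 4 FPKM in 2, and none of the other 8 reached 4 FPKM anywhere. TFAP2C decreased with each day of Dox to 0.349 times its Day 0 level and KRT7 decreased to 0.265 times, while GATA3 was listed at 0 at Day 0 and at 2.68 FPKM at Day 4. HAND1 and CGA were never detected. Because the libraries are from whole cultures, fewer cells that express a gene and less RNA per cell cannot be told apart.

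**Figure D1:**
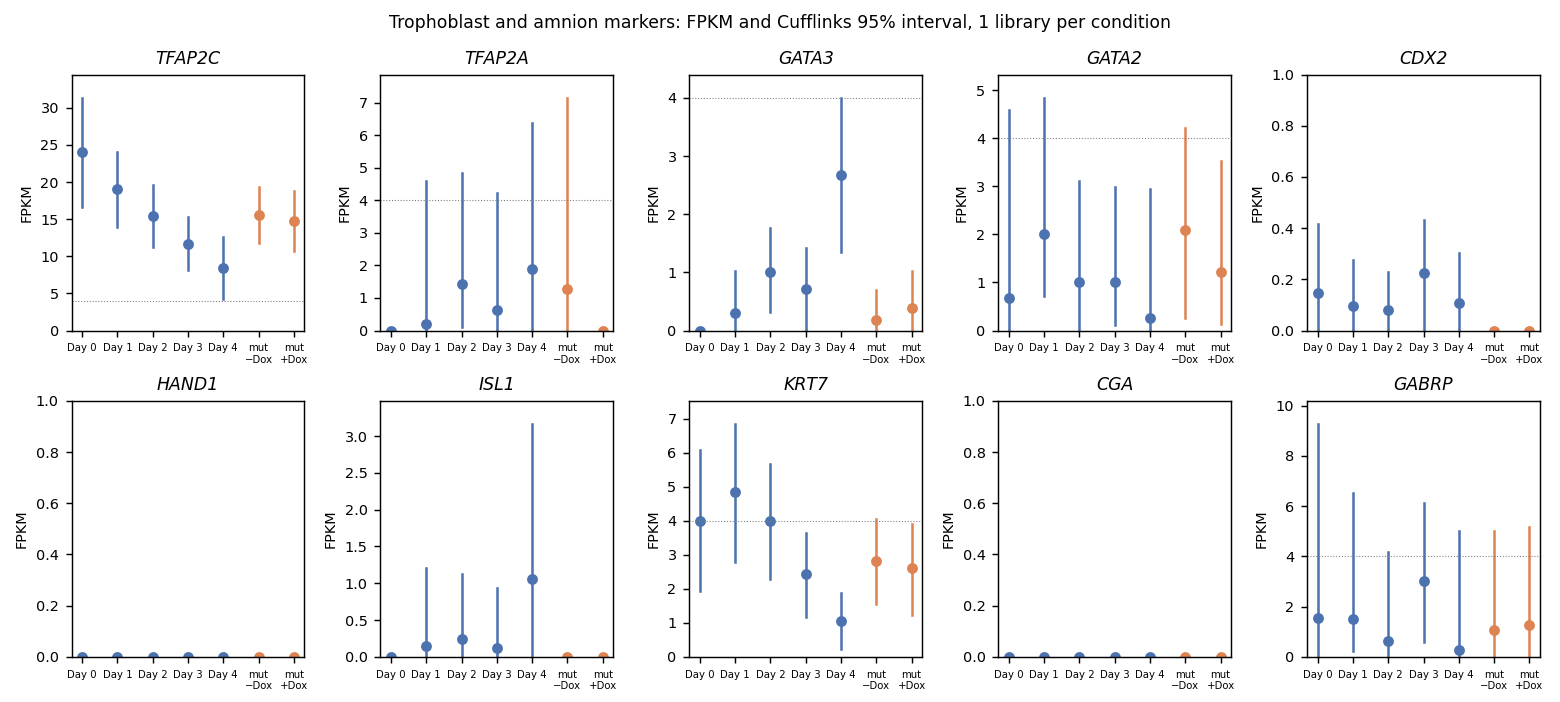
FPKM (y axis, linear from 0, a separate scale in each panel) of the 10 markers in the 7 libraries, JMJD3c-hESCs at Days 0 to 4 in blue and JMJD3c mut-hESCs without and with Dox in orange; points are the deposited values, vertical lines the Cufflinks 95% intervals, and the dotted line 4 FPKM where it falls on the scale. TFAP2C descends from 24.0 to 8.36 FPKM, KRT7 ends at 1.06 FPKM, GATA3 ends at 2.68 FPKM, and HAND1 and CGA lie at 0 throughout.

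The AP-2 factors are described first. TFAP2C (ENSG00000087510, chromosome 20, 55204358 to 55214339, plus strand) was 24.0 FPKM at Day 0 (interval 16.7 to 31.3), 19.0 at Day 1 (14.0 to 24.1), 15.4 at Day 2 (11.3 to 19.6), 11.7 at Day 3 (8.21 to 15.3) and 8.36 at Day 4 (4.26 to 12.6). The untreated mutant line had 15.6 FPKM (11.8 to 19.4) and the treated mutant line 14.8 FPKM (10.6 to 18.8). The level was thus highest at Day 0 and lowest at Day 4, and the interval of Day 3 lay below that of Day 0, that of Day 4 lay below those of Days 0 and 1, and the intervals of neighbouring days overlapped. The ratio to Day 0 was 0.488 at Day 3 and 0.349 at Day 4, a difference of -1.42 on the log2(FPKM + 1) scale. A fall at all 4 daily steps was seen in 3.99% of the 9605 genes above 4 FPKM at Day 0. At the estimated depth and by the longest transcript, the Day 0 value stands for at most about 229 reads and the Day 4 value for about 109.

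The fall of TFAP2C was smaller against the mutant line. The untreated mutant line held 0.649 times the TFAP2C of Day 0, although both were without Dox, and the Day 4 level was 0.537 times that of the untreated and 0.567 times that of the Dox-treated mutant line. The intervals of Day 4 and of both mutant libraries overlapped. Within the mutant line, the ratio with Dox against without was 0.947.

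TFAP2A (ENSG00000137203, chromosome 6, 10393419 to 10419871, minus strand), which with TFAP2C is active in trophoblast and surface ectoderm, was low and unsteady. It was listed at 0 at Day 0, and was 0.205 FPKM at Day 1 (0 to 4.60), 1.43 at Day 2 (0.0997 to 4.84), 0.634 at Day 3 (0 to 4.22) and 1.89 at Day 4 (0 to 6.37). The mutant line gave 1.28 FPKM without Dox (0 to 7.15) and 0 with Dox. The highest value was that of Day 4, but its interval reached 0 and covered the value of the untreated mutant line. Of the other AP-2 genes, TFAP2D was listed at 0 in all libraries, TFAP2B reached 0.0735 FPKM at Day 4 and TFAP2E was at most 0.625 FPKM, so TFAP2C made up most of the AP-2 signal everywhere.

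Among the GATA factors, GATA3 and GATA2 are those of trophoblast and amnion. GATA3 (ENSG00000107485, chromosome 10, 8096656 to 8117161, plus strand) was listed at 0 at Day 0, and was 0.306 FPKM at Day 1 (0 to 1.03), 1.01 at Day 2 (0.324 to 1.77), 0.711 at Day 3 (0 to 1.42) and 2.68 at Day 4 (1.36 to 4.00). Its level in the mutant line was 0.190 FPKM without Dox (0 to 0.696) and 0.382 with Dox (0 to 1.02). Day 4 stood highest, with an interval above that of Day 0 and of both mutant libraries, and overlapping those of Days 2 and 3. Against the untreated and the Dox-treated mutant line the Day 4 level was 14.1-fold and 7.02-fold higher. The size of these ratios is uncertain, since the mutant values stand for only about 4.03 and 7.10 reads by the longest transcript and their intervals reach 0. Against Day 0 no ratio can be formed, since 3 reads there would correspond to 0.291 FPKM or more. The log2 difference of 1.88 depends on the pseudocount. The Day 4 value stays below 4 FPKM and stands for about 37.9 reads by the longest transcript, fewer if the transcripts are shorter.

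GATA2 (ENSG00000179348, chromosome 3, 128198270 to 128212028, minus strand) did not follow GATA3. It was 0.671 FPKM at Day 0 (0 to 4.58), 2.01 at Day 1 (0.711 to 4.84), 1.00 at Day 2 (0 to 3.11), 1.00 at Day 3 (0.125 to 2.99) and 0.260 at Day 4 (0 to 2.95), with 2.09 (0.258 to 4.21) and 1.21 (0.134 to 3.53) in the mutant line without and with Dox. The lowest value was at Day 4 and the highest in the untreated mutant line, and all 7 intervals overlapped.

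The GATA genes of mesendoderm and endoderm reached higher levels over the same days. GATA6 was listed at 0 at Days 0 and 1 and was 2.52, 6.11 and 14.8 FPKM at Days 2 to 4. GATA4 was listed at 0 at Day 0 and was 0.893, 3.16, 6.11 and 11.0 FPKM at Days 1 to 4. At Day 4 the intervals of GATA4 (6.69 to 15.3) and GATA6 (11.6 to 18.1) lay above that of GATA3. GATA5 went from 1.64 to 0.343 FPKM, and GATA1 was listed at 0 in all libraries. In the mutant line with Dox, GATA4 was 0.259 FPKM and GATA6 was listed at 0.

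**Figure D2:**
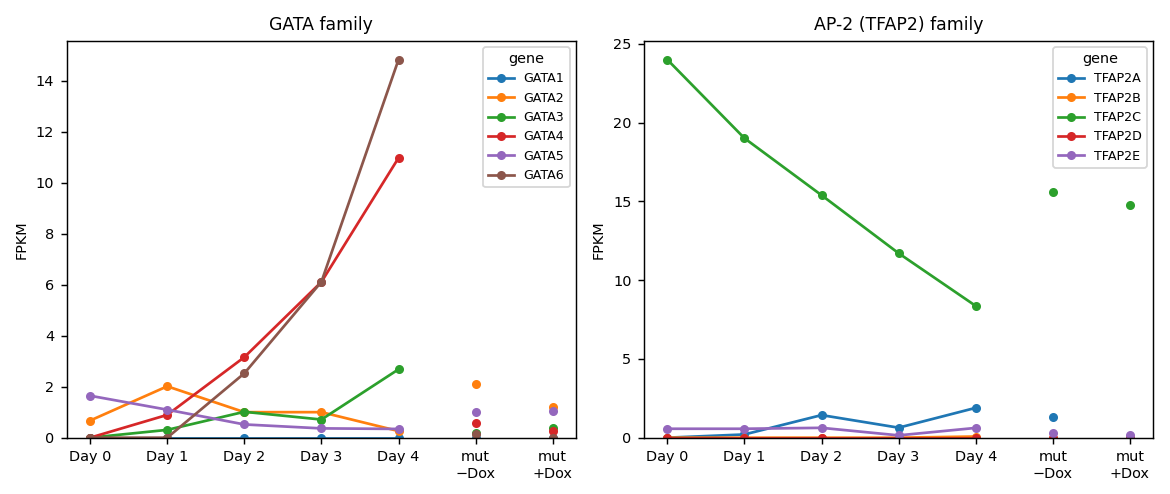
FPKM (y axis, linear) of the GATA family (left) and the AP-2 family (right) in the JMJD3c-hESCs at Days 0 to 4, joined by lines, and in the JMJD3c mut-hESCs without and with Dox, as separate points. GATA6 and GATA4 end at 14.8 and 11.0 FPKM and GATA3 at 2.68 FPKM, while TFAP2C is the 1 AP-2 gene above 2 FPKM.

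CDX2 (ENSG00000165556, chromosome 13, 28536274 to 28545276, minus strand), the homeobox factor of early trophectoderm and of the intestine, was near the detection limit. Its FPKM was 0.146, 0.0974, 0.0806, 0.226 and 0.107 at Days 0 to 4 and 0 in both mutant libraries. With the relative depth of the libraries removed, these values were whole multiples, within 0.02, of the Day 0 value: 1, 1, 1, 3 and 1, then 0 and 0. No order can be read from counts of this size. CDX1 and CDX4 also stayed below 1 FPKM in every library.

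HAND1, a bHLH factor of late amnion, extraembryonic mesoderm and heart, was listed at 0 in all 7 libraries (ENSG00000113196, chromosome 5, 153854532 to 153857824, minus strand). By the longest transcript, a count of 3 reads would correspond to between 0.271 and 0.558 FPKM, depending on the depth of the library. A shorter transcript would raise these levels. Its relative HAND2 was also listed at 0 in all libraries. ISL1 (ENSG00000016082, chromosome 5, 50678921 to 50690564, plus strand), a LIM-homeobox factor of amnion, heart progenitors and motor neurons, was listed at 0 at Day 0 and in both mutant libraries. It was 0.147 FPKM at Day 1 (0 to 1.20), 0.243 at Day 2 (0 to 1.12), 0.114 at Day 3 (0 to 0.934) and 1.054 at Day 4 (0 to 3.16). ISL1 was thus listed above 0 at Days 1 to 4, highest at Day 4, each time with an interval that reached 0. The values of Days 1 and 3 lie below the level of 3 reads, 0.255 and 0.197 FPKM, and that of Day 2 is just above it, 0.211 FPKM. No order can be read among these 3 days, nor a difference from the libraries listed at 0. The LIM-homeobox gene LHX1, known from the anterior primitive streak, went from 0 to 15.9 FPKM at Day 4 (13.1 to 18.6).

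KRT7 (ENSG00000135480, chromosome 12, 52626898 to 52642705, plus strand), a keratin of simple epithelia and the usual protein marker of trophoblast, was 3.98 FPKM at Day 0 (1.92 to 6.08), 4.83 at Day 1 (2.78 to 6.84), 4.00 at Day 2 (2.30 to 5.66), 2.43 at Day 3 (1.16 to 3.64) and 1.06 at Day 4 (0.234 to 1.87). The mutant line gave 2.81 FPKM without Dox (1.55 to 4.04) and 2.61 with Dox (1.24 to 3.91). Day 4 was the lowest library, and its interval lay below those of Days 0, 1 and 2 and overlapped those of both mutant libraries. After removal of depth, the values were whole multiples of 1 unit: 11, 20, 20, 13 and 4 at Days 0 to 4, and 16 and 13 in the mutant line. Taking these as read counts, the ratio of Day 4 to Day 0 was 0.265 with an exact conditional binomial 95% interval of 0.0617 to 0.896. The ratio to the untreated mutant line was 0.376 (0.0915 to 1.17) and that to the Dox-treated mutant line 0.405 (0.0962 to 1.31). These intervals cover counting error only, and would be narrower if 1 unit held several reads. The hair keratin gene KRT86 was listed at 0 in 6 libraries, the exception being the mutant line without Dox, with 0.144 FPKM.

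KRT7 had by far the lowest level of the simple keratins with signal, and KRT18 and KRT19 were higher at Day 4. From Day 0 to Day 4, KRT19 went from 76.2 (62.7 to 89.7) to 128 FPKM (113 to 143) and KRT18 from 170 (152 to 189) to 215 FPKM (197 to 234), with intervals apart in both cases and ratios below 2. KRT18 was also higher with Dox in the mutant line, at 107 FPKM without and 138 FPKM with Dox. KRT19 was 67.4 and 65.2 FPKM there. KRT8 was 466 FPKM at Day 0 and 430 FPKM at Day 4, and both values lie outside their own intervals. KRT20 and KRT23 were listed at 0 in all libraries.

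CGA (ENSG00000135346, chromosome 6, 87795216 to 87804824, minus strand), the alpha subunit shared by chorionic gonadotropin, LH, FSH and TSH, was listed at 0 in all 7 libraries. By the longest transcript, a count of 3 reads would correspond to between 0.643 and 1.33 FPKM for this short gene product, and to more for a shorter one. A level below that was not detectable. Of the 10 hormone subunit genes listed, none passed 4 FPKM. CGB1 was 1.77 FPKM at Day 0 and at most 0.197 FPKM elsewhere, and LHB reached 1.32 FPKM at Day 4; the CGB genes and LHB are near-identical copies, so the division of reads among them is uncertain.

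GABRP (ENSG00000094755, chromosome 5, 170190354 to 170241051, plus strand), the pi subunit of the GABA-A receptor and a surface marker of amnion, was 1.56 FPKM at Day 0 (0 to 9.26), 1.502 at Day 1 (0.241 to 6.52), 0.621 at Day 2 (0 to 4.18), 3.03 at Day 3 (0.587 to 6.13) and 0.264 at Day 4 (0 to 5.02). The mutant line held 1.07 FPKM without Dox (0 to 4.99) and 1.25 with Dox (0 to 5.15). The highest and the lowest values were on neighbouring days, and all 7 intervals overlapped. GABRA5, a subunit gene known from neurons, was 6.43 FPKM at Day 0 and 3.54 at Day 4. Of the 16 subunit genes, 3 were higher and 10 lower at Day 4 than at Day 0, but only 8 passed 1 FPKM in any library. GABRQ alone was more than 2-fold lower with more than 4 FPKM at Day 0, from 4.61 to 2.06 FPKM, where 3.84% of all genes were.

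The count of markers that passed the limits was then set beside that of all genes. A gene was called higher or lower at a ratio of more than 2 with more than 4 FPKM in the higher library. At Day 1, no marker was called, against 1.76% of 20187 genes higher and 1.65% lower. At Day 2, again no marker was called, against 1.97% and 2.14%. TFAP2C was called lower at Day 3, where 2.28% of genes were, and at Day 4, where 3.84% were, while KRT7, at 3.98 FPKM at Day 0, was just under the FPKM limit. No marker was called higher on those days, against 2.4% and 2.98% of genes. Since 1 or 2 of the 10 markers were above 4 FPKM in any library, few could be called.

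A limit suited to low genes was added after the values had been seen, a ratio of more than 2 with more than 1 FPKM and intervals that do not overlap. By it, GATA3 and TFAP2A were higher at Day 2 (0.976% of all genes), but the Day 0 interval of both is from 0 to 0. The lower bound of TFAP2A at Day 2 is less than what 3 reads would give at Day 0. That of GATA3, 0.324 FPKM, is barely above the Day 0 floor of 0.291 FPKM, which a shorter transcript would raise. At Day 4, GATA3 was higher (1.65% of all genes) and TFAP2C and KRT7 lower (1.6%). The median log2 difference of the 10 markers at Day 4 was -0.03, with 3 higher, 5 lower and 2 equal at 0, and the median over all genes was 0.

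In the comparison of Day 4 with the mutant line, no marker passed the ratio and 4 FPKM limits in either direction. Of all genes, 3.51% were higher and 1.94% lower than in the untreated mutant line, and 3.25% and 1.49% than in the Dox-treated mutant line. GATA3 passed the limit for low genes in both, where 2.23% and 2.02% of all genes did. In each of these comparisons 4 markers were higher, 4 lower and 2 equal.

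The mutant line shows the markers with Dox but without catalytic activity. No marker was called, against 0.604% of genes higher and 0.738% lower, although KDM6B was above its level in any JMJD3c-hESC library. TFAP2C and KRT7 differed by -0.07 and -0.08 on the log2 scale, and GATA3 was 2.01 times as high with overlapping intervals. The lines without Dox also differed from each other: 1.38% of genes were higher and 3.49% lower in the untreated mutant line than at Day 0, with no marker called. GATA2 was 3.11 times as high and TFAP2C 0.649 times as high in the untreated mutant line, both with overlapping intervals. All of the comparisons that share the Day 0, Day 4 or untreated mutant library share its error.

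**Figure D3:**
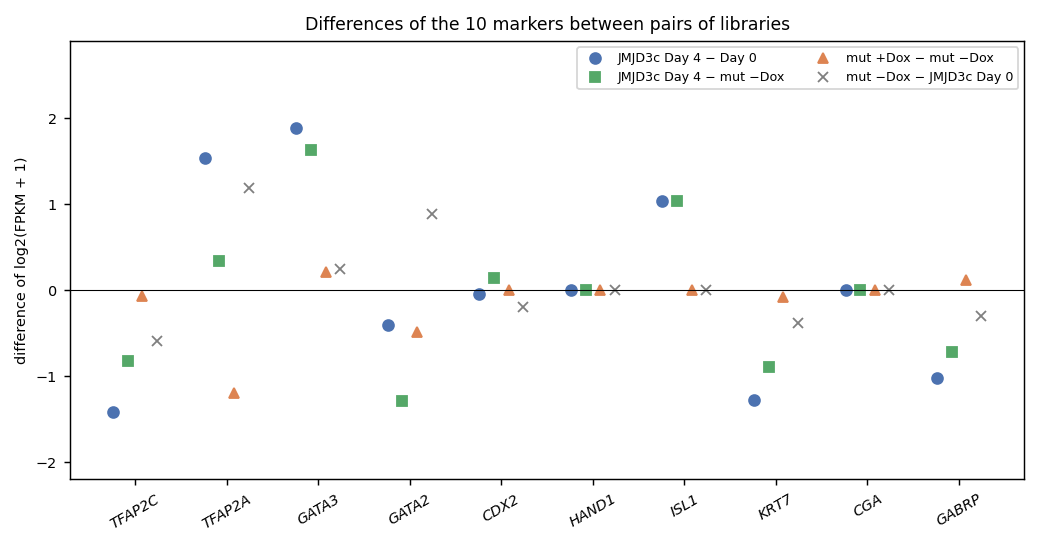
Differences of log2(FPKM + 1) (y axis) of the 10 markers (x axis) for 4 pairs of libraries, 1 symbol per pair and 1 library per condition, with no error bar because no condition was replicated. At Day 4 against Day 0, TFAP2C, KRT7, GABRP, GATA2 (-0.41) and CDX2 (-0.05) lie below 0 and GATA3, TFAP2A and ISL1 above 0. With Dox in the mutant line only TFAP2A, at -1.19, differs by more than 1.

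Summed over the 10 markers, FPKM fell from 30.4 at Day 0 to 28.1, 23.8, 19.9 and 15.7 at Days 1 to 4, and was 23.0 and 20.2 in the mutant line. Without TFAP2C the sums were 6.36 at Day 0 and 7.32 at Day 4, so the decline of the sum is that of TFAP2C. Between 3 and 5 markers were above 1 FPKM in each library, where 58.9% to 61.7% of all genes were. At Day 4 the order of levels was TFAP2C, GATA3, TFAP2A, KRT7, ISL1, GABRP, GATA2 and CDX2, and below TFAP2C the intervals of neighbours in this order overlapped. The interval of TFAP2C (4.26 to 12.6) lay above that of GATA3 (1.36 to 4.00).

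The patterns of the 2 markers above 4 FPKM were compared with 10878 genes over the 7 libraries, as a description. TFAP2C was most like MYH14 (Pearson r of 0.992), HK1 (0.988) and TUBB4A (0.987), and 47 genes had an r over 0.95. HK1, the hexokinase of glycolysis, was 111 FPKM at Day 0 and 52.2 at Day 4, and 86.6 and 73.7 in the mutant line. KRT7 was most like NADK (0.980), CGNL1 (0.977), a tight junction protein, and TRIM71 (0.975), with 22 genes over 0.95. CGNL1 went from 29.0 to 11.9 FPKM and was 19.8 and 18.8 FPKM in the mutant line.

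Further genes of trophoblast were examined next. Of 62 such genes, 17 were higher and 17 lower at Day 4 than at Day 0, the median log2 difference was 0, and 16 were listed at 0 in all libraries. Those at 0 include GCM1, the driver of syncytiotrophoblast fusion, ELF5 and TP63 of the stem cell compartment, VGLL1, and the pregnancy-specific glycoprotein genes PSG1, PSG3, PSG5 and PSG9. The 3 genes called higher were PHLDA2, MSX2 and TFPI2, and none was called lower, against 2.98% and 3.84% of all genes. PHLDA2, an imprinted gene that restrains placental growth, was 4.48 FPKM at Day 0 (1.18 to 7.65), 3.99, 4.54 and 8.11 at Days 1 to 3 and 16.4 at Day 4 (9.02 to 21.5). It also went from 1.45 to 4.56 FPKM with Dox in the mutant line. MSX2 went from 1.35 to 4.63 FPKM and TFPI2 from 7.72 to 15.5 FPKM, both with overlapping intervals. MSX2 was listed at 0 in both mutant libraries, while TFPI2 was 11.3 FPKM without and 7.11 FPKM with Dox there. Against the untreated mutant line the 3 genes called higher at Day 4 were KRT18, MSX2 and PHLDA2, so TFPI2 was not, where 3.51% of all genes were called. TEAD4 (35.1 and 33.9 FPKM) and EPCAM (127 and 142 FPKM), which trophoblast shares with hESCs, stayed within a ratio of 2.

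Of 12 further genes of amnion, 8 were higher and 2 lower at Day 4, with a median log2 difference of 0.26. A similar split was present without Dox: the untreated mutant line against Day 0 had 7 higher and 1 lower, with a median of 0.146. With Dox in the mutant line, 2 were higher and 7 lower. The 8 include VTCN1, TFAP2B, WNT6 and POSTN, which were listed at 0 at Day 0 and at 0.0735 to 0.572 FPKM at Day 4. TNC, an extracellular matrix glycoprotein, was 0.205 FPKM at Day 0 (0 to 2.68), 0.873, 2.87 and 8.43 at Days 1 to 3 and 24.6 at Day 4 (21.1 to 28.1). It was 0.697 and 0.569 FPKM in the mutant line. MSX1, a homeobox gene induced by BMP, was listed at 0 at Day 0 and was 4.02 FPKM at Day 4 (2.12 to 5.71). No other gene of the list was called higher, where 2.98% of all genes were, and none was called lower. In the same list, VTCN1, WNT6, ITGB6 and TFAP2B stayed below 1 FPKM throughout. BMP4 was 5.48 FPKM at Day 0 and 6.75 at Day 4, and BAMBI was 9.06 and 16.9 FPKM.

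Markers of other cell types moved on the same days, and their part in the values above was not tested. The shares of all genes called at Day 4, 2.98% higher and 3.84% lower, apply to each list below. Of 7 primitive streak and mesendoderm genes, 6 were called higher at Day 4 and MESP1 was not, with a summed FPKM of 5.75 at Day 0, 252 at Day 4 and 9.14 and 5.59 in the mutant line. EOMES went from 0 to 38.2 FPKM and CER1 from 0 to 134 FPKM. Of 12 genes of lateral plate and extraembryonic mesoderm, TBX3 and GATA4 were called higher and KDR lower, and HAND2 and FOXF1 were at 0 in all libraries. The germ cell list is of use for TFAP2C, which acts there with SOX17 and PRDM1. SOX17, which also marks endoderm, went from 0 to 20.3 FPKM as TFAP2C fell, and PRDM1 from 0.233 to 4.29 FPKM with overlapping intervals. NANOS3 was at 0 in all libraries and DND1 went from 7.51 to 0.457 FPKM. DND1 was 3.55 and 2.54 FPKM in the mutant line without and with Dox. It was called lower in the untreated mutant line than at Day 0 (3.49% of all genes), and not at Day 4 against either mutant library. In the list of non-neural ectoderm, EPAS1 alone was called, from 1.47 to 7.58 FPKM, and KRT5, KRT14 and TP63 had no signal. Of the neural crest list, TWIST1 alone was called, from 0 to 5.61 FPKM. All 6 pluripotency genes were lower at Day 4, and SOX2 (136 to 65.9 FPKM) and DNMT3B (404 to 191 FPKM) passed the limits. All 6 were also lower with Dox in the mutant line, with a median log2 difference of -0.22 and none called, and none was called at Day 4 against either mutant library.

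**Figure D4:**
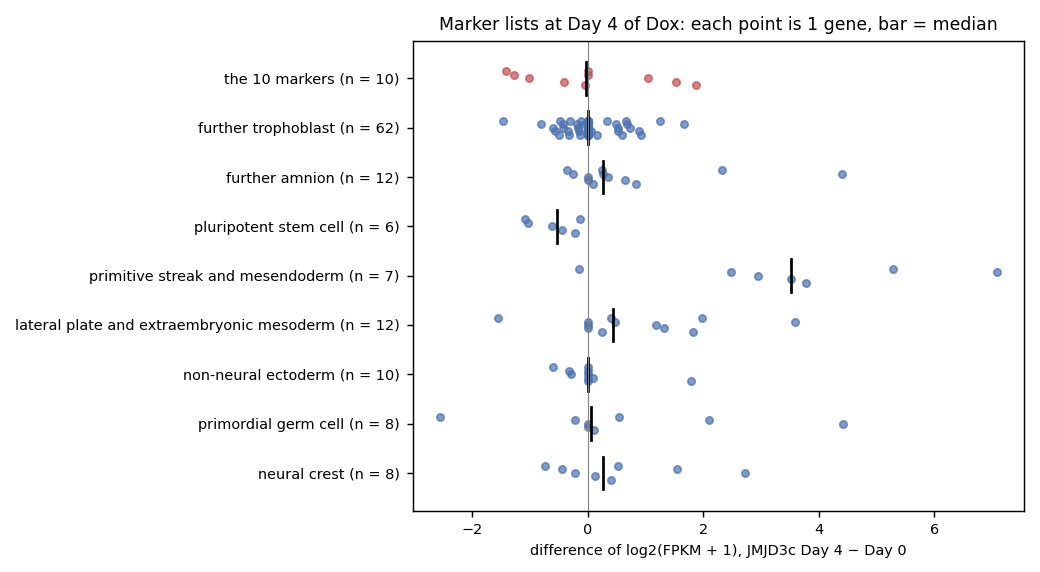
Differences of log2(FPKM + 1) between Day 4 and Day 0 of the JMJD3c-hESCs (x axis) for the 10 markers, in red, and 8 further marker lists, in blue; each point is 1 gene, shifted vertically for legibility, and the black bar is the median. The medians of the 10 markers and of the further trophoblast list lie at -0.03 and 0, and that of the primitive streak and mesendoderm list at 3.52.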

How the data were processed

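RNA-seq values of 7 libraries, 1 per condition, were analysed. Per the labels and methods, the authors made poly(A) libraries with a directional kit, sequenced 150-base single-end reads on a MiSeq, mapped them to hg19 with TopHat2 2.0.13, and deposited gene FPKM values with 95% bounds from Cufflinks 2.1.1. The submitters' processing notes also name CASAVA 1.4. The annotation release and the strand setting of the counting were not given in the sources used here, so reads from antisense genes (GATA3-AS1, GATA2-AS1, TFAP2A-AS1, KRT7-AS) cannot be told apart from those of their partners.

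Ratios used the deposited FPKM, and log2 differences a pseudocount of 1, which understates changes of low genes. A call needed a ratio above 2 and more than 4 FPKM in the higher library. No test was run because no condition has a replicate. A symbol listed more than once was represented by its entry of highest mean FPKM. Depth was estimated from whole-read steps of 76 single-exon, single-transcript genes, whose length was shortened by 200 bases. The floor of 3 reads covers counting error only. Read numbers and floors used the longest annotated transcript, so the reads may be too high and the floors too low. At Day 0 this gave 20.3 reads for the 11 units of KRT7 and 1.70 for the 1 unit of CDX2. Of the entries, 35 were marked as low data, none of them a marker.

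The named genes are the 10 markers, their family members, the called genes of each list (at most 6 per direction) and the 3 genes nearest in pattern. The markers and lists were chosen with earlier results of these data known, and the lists share genes. The scripts were tested on simulated data. Python 3.11.15, numpy 2.4.6, pandas 2.3.3 and matplotlib 3.10.9 were used. Alternatives changed the FPKM minimum, the ratio, the pseudocount, the scaling, the intervals and the libraries compared. Columns other than FPKM and its bounds were not used as values.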

Additional observations from a re-analysis of the deposited data

Results flagged for a closer look

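TFAP2A differed by 1.53 on the log2(FPKM + 1) scale between Day 4 and Day 0 of the JMJD3c-hESCs and by -1.19 between the mutant line with and without Dox. The gap between these opposite differences, 2.72, was not tested, and it rests on single libraries whose intervals reach 0. GABRP differed by -1.02 in the JMJD3c-hESCs and by 0.12 in the mutant line. That gap, -1.14, was not tested either, and the GABRP intervals overlapped in all libraries.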

How the results depend on the processing

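Of 69 alternative values of the counts and medians over the markers and lists, 54 stayed near the value reported and 15 moved. Some of the 54 could not move, so they do not measure stability. A stricter limit leaves a count of 0 at 0, and summing entries changes nothing for markers with 1 entry each. Medians of the markers counted as near within 0.28, the median absolute log2 difference of the markers between the untreated lines. With an FPKM minimum of 1, 3 markers were called higher (0 in the report) and 3 lower (1 in the report) at Day 4 against Day 0, 3 were higher against the Dox-treated mutant line (0), and 1 was called in the mutant line (0). The share of all genes called at this minimum was not determined, so these counts cannot be judged against it. With a minimum of 1 and intervals apart, a limit chosen after seeing the data, the counts were 1 higher and 2 lower against Day 0 and 1 higher against the Dox-treated mutant line. With a ratio above 3, or with the untreated mutant line as reference, 0 markers were lower. Over markers above 1 FPKM, the median at Day 4 was -0.41 in place of -0.03. The 3 further trophoblast genes called became 1 with intervals apart, 1 at Day 3 and 1 with the added limit. The 2 further amnion genes called became 1 with a minimum of 10 FPKM and 1 at Day 3. The log2 difference of KRT7 was -1.82 with a pseudocount of 0.1 and -0.66 with 4, and that of GATA3 was 4.80 and 0.74. The median of the markers, -0.03 at Day 4 against Day 0, was 0.13 with Day 3 in place of Day 4 and 0 with the untreated mutant line as reference, so its sign is not stable. Beyond the settings' own construction, the cause was not tested. Leaving out a library was not possible with 1 per condition. No paired analysis was possible because the conditions have 1 library each. At this depth, HAND1 and CGA can be given only as listed at 0, with the level of 3 reads as the floor.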
